A study of Mus musculus with 4 samples.

Results

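Nr3c1, Nr3c2, Fkbp5, Crh, Crhr1, Crhr2 and Hsd11b1 are 7 genes of the hormonal stress axis and of glucocorticoid signalling, and their DNA methylation was read from a whole-genome bisulfite table of the CA1 field of the mouse hippocampus. A region of that table was taken when its deposited gene name was one of these symbols, or when it lay on the same chromosome within 3 kb of the gene's outermost named region. This gave 297 of the 849014 regions with a value in every library, and each of the 7 genes was represented. Nr3c2 had 121 regions, Fkbp5 66, Nr3c1 36, Crhr1 33, Crhr2 26, Hsd11b1 8 and Crh 7.

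All 4 libraries came from C57B6/J mice at 117 days of age. The pair labelled Tet2+f_Camk2aCre is called the Cre libraries here, and the pair labelled Tet2+f the controls. The labels are read as 1 floxed and 1 intact allele of Tet2, whose product oxidises 5-methylcytosine, in both groups. In the Cre libraries alone, the label adds a Cre recombinase driven by the Camk2a promoter, which is active in excitatory forebrain neurons. Both groups carry the Tet2+f label, and no group carries Cre without it, so reduced Tet2 and the Cre transgene cannot be told apart. Whether a pair stems from different mice is not in the labels, and the p-values then measure only a spread between libraries that may be technical. A tissue level averages over all cells, and a difference in the glutamatergic cells that the study addresses cannot be told apart from a difference in how many such cells were sampled. Bisulfite reads 5-methylcytosine and its TET product 5-hydroxymethylcytosine as the same base.

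Corticotropin-releasing hormone starts the hormonal stress response in the hypothalamus, and it is also made by interneurons of the hippocampus. The response ends in glucocorticoid release from the adrenal gland, and the hippocampus, with its dense mineralocorticoid and glucocorticoid receptors, is one of the sites of feedback. Methylation at CpG sites, cytosines followed by guanine, is usually absent from CpG-rich promoters and high in the rest of a gene.

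For 5 of the 7 genes a start sequence from RefSeq (GRCm38.p6) was at hand. Nr3c1 and Crh lacked one here, although RefSeq gives a gene start for both. The 250 bases before each start site are printed because their CpG content sets the genes apart. Each is written 5' to 3' on the strand of its gene, with every CpG in capitals.
Crhr1 (chr11:104132531-104132780, plus strand): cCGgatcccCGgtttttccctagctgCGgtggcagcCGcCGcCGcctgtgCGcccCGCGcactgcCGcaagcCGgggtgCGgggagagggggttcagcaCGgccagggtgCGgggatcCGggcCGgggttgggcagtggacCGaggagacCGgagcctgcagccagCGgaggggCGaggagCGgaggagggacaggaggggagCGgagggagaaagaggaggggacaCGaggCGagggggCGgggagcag
Fkbp5 (chr17:28486150-28486399, minus strand): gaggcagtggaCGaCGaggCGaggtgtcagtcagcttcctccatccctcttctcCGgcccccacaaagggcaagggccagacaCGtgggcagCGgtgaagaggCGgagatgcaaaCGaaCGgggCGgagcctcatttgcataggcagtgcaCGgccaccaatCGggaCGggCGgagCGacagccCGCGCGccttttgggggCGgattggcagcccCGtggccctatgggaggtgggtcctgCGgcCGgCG
Nr3c2 (chr8:76902080-76902329, plus strand): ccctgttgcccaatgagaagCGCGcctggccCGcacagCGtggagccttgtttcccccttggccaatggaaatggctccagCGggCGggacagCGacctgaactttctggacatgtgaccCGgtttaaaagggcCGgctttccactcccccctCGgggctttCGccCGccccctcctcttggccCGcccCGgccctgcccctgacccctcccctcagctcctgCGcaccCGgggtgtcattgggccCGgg
Hsd11b1 (chr1:193242361-193242610, minus strand): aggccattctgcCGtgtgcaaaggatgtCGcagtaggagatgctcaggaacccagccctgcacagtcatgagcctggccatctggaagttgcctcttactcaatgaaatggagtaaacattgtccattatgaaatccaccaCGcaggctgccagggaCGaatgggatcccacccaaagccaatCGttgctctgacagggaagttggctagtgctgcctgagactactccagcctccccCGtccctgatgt
Crhr2 (chr6:55133017-55133266, minus strand): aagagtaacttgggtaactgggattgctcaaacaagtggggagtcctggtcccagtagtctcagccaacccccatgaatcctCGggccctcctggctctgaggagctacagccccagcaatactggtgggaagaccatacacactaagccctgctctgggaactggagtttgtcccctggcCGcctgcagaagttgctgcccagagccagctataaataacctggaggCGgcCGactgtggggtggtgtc

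These sequences fall into CpG-rich and CpG-poor ones, and the methylation of the regions over them followed that division. The window of 300 bases that adds 50 bases after the start held 32 CpGs in Fkbp5, 31 in Crhr1 and 17 in Nr3c2, but 6 in Hsd11b1 and 5 in Crhr2. The regions over the window averaged 0.952% over the 4 libraries in Nr3c2 and 1.58% in Crhr1. In Fkbp5 the average was 15.1%, from a region of 191 bp across the start that averaged 0.547% and a region of 652 bp before it that averaged 29.7%. Hsd11b1 averaged 62.0% and Crhr2 86.9%. The Hsd11b1 window lies within the RefSeq span of the gene, outside the 8 regions that the naming rule took. Its start site, 193242360, is not the outermost RefSeq gene start, 193264045, which is used for the promoter level below. These positions also differ in Nr3c2, 76902330 against 76898083, and in Crhr1, 104132781 against 104130463. In Fkbp5 and Crhr2 they are the same.

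The same division into CpG-rich and CpG-poor held over all 32807 RefSeq windows with a region. The median level was 78.9% in the 6650 windows with 3 to 5 CpGs, 67.2% in the 4260 with 6 to 9, 9.55% in the 2677 with 15 to 19 and 1.17% in the 8700 with 20 or more. Crhr2, at 86.9%, thus lay above the upper quartile of its class, 85.4%, and Fkbp5, at 15.1%, above that of its class, 9.38%. Nr3c2, at 0.952%, lay below the lower quartile of its class, 1.08%. Hsd11b1 and Crhr1 lay between the quartiles of theirs. Of windows with 20 or more CpGs, 89.1% were under 20%.

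Short motifs were searched on both strands of each 300-base window, with overlapping matches counted. The GC box GGGCGG, which contains a CpG, was found 4 times in Fkbp5, 3 times in Nr3c2 and once in Crhr1, and 35.7% of all windows held it. The TATA motif TATAAA was found only in Crhr2 among the 5 windows, and in 13.6% of all windows. Neither TGACG, a cyclic AMP response element core, nor AGAACA, a glucocorticoid response element core, was found in any of the 5 windows, and 20.8% and 19% of all windows held them. These counts describe the letters of these windows alone.

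**Figure D1:**
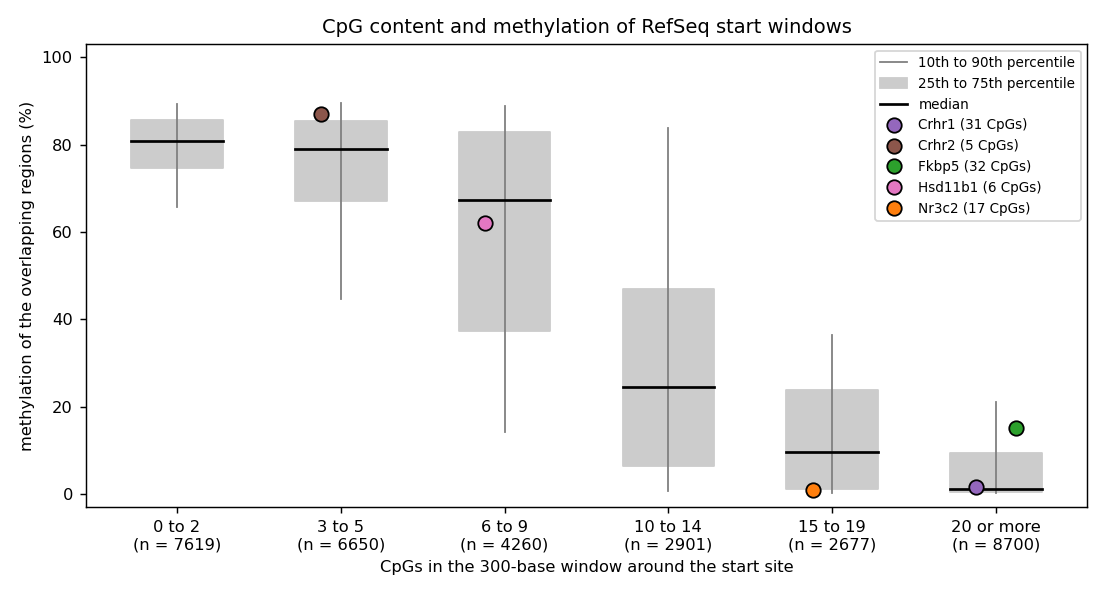
Methylation in percent (vertical axis) of the regions over RefSeq start windows, by the number of CpGs in the 300-base window (horizontal axis). Grey boxes and lines give percentiles over all windows and circles the 5 genes, averaged over the 4 libraries; Crhr1, Fkbp5 and Nr3c2 sit at the CpG-rich, low end and Hsd11b1 and Crhr2 at the CpG-poor, high end.

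Across the whole table the mean level was between 75.7% and 76.1% in each library. None of the 849014 regions passed the test of the group difference (limma, Benjamini-Hochberg adjusted, smallest adjusted p = 0.937), and 39068 had an unadjusted p under 0.05. The defining markers of CA1 pyramidal cells had median gene levels between 38.2% and 39.6% over the libraries, those of microglia between 70.3% and 72.9% and those of endothelial cells between 78.3% and 80.2%. The medians of the other lists ran from 54.6% to 55.4% for interneurons, 61.1% to 63.0% for dentate gyrus and CA3, 62.4% to 63.4% for astrocytes and 69.9% to 72.3% for oligodendrocytes. No marker passed the test. Methylation levels are not cell counts, so the makeup of the samples was not measured. The table holds no counts or coverage, and the read depth at these genes is unknown.

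The 7 genes held a larger share of low-methylated regions than the table as a whole, which includes regions outside named genes. This share was not compared with that of other genes. Of the 297 regions 44, or 14.8%, averaged under 20% over the 4 libraries, against 6.57% of all regions. A further 16 lay at 20 to 50%, 90 at 50 to 80% and 147 at 80% or more. The low regions were short, with a median length of 309 bp, against 2601 bp for those at 80% or more. Over all regions these medians were 331 and 2859 bp. Low regions made up 12 of 36 in Nr3c1, 3 of 7 in Crh, 8 of 33 in Crhr1, 8 of 66 in Fkbp5, 3 of 26 in Crhr2, 10 of 121 in Nr3c2 and 0 of 8 in Hsd11b1.

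Averaged over the regions of a gene, Crh was the least methylated member, at 40.7%, followed by Nr3c1 at 51.6%, Crhr1 at 57.1%, Fkbp5 at 69.9%, Crhr2 at 71.3%, Nr3c2 at 72.9% and Hsd11b1 at 74.1%. The ranges over the 4 libraries did not overlap between neighbours in this order, except between Nr3c2 and Hsd11b1. Each region counts equally here, so a gene with many short low regions has a lower mean. Weighted by length, the means were 66.9% for Crh, 71.8% for Crhr1, 72.8% for Nr3c1, 74.8% for Hsd11b1, 78.4% for Nr3c2, 79.0% for Crhr2 and 80.4% for Fkbp5.

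**Figure D2:**
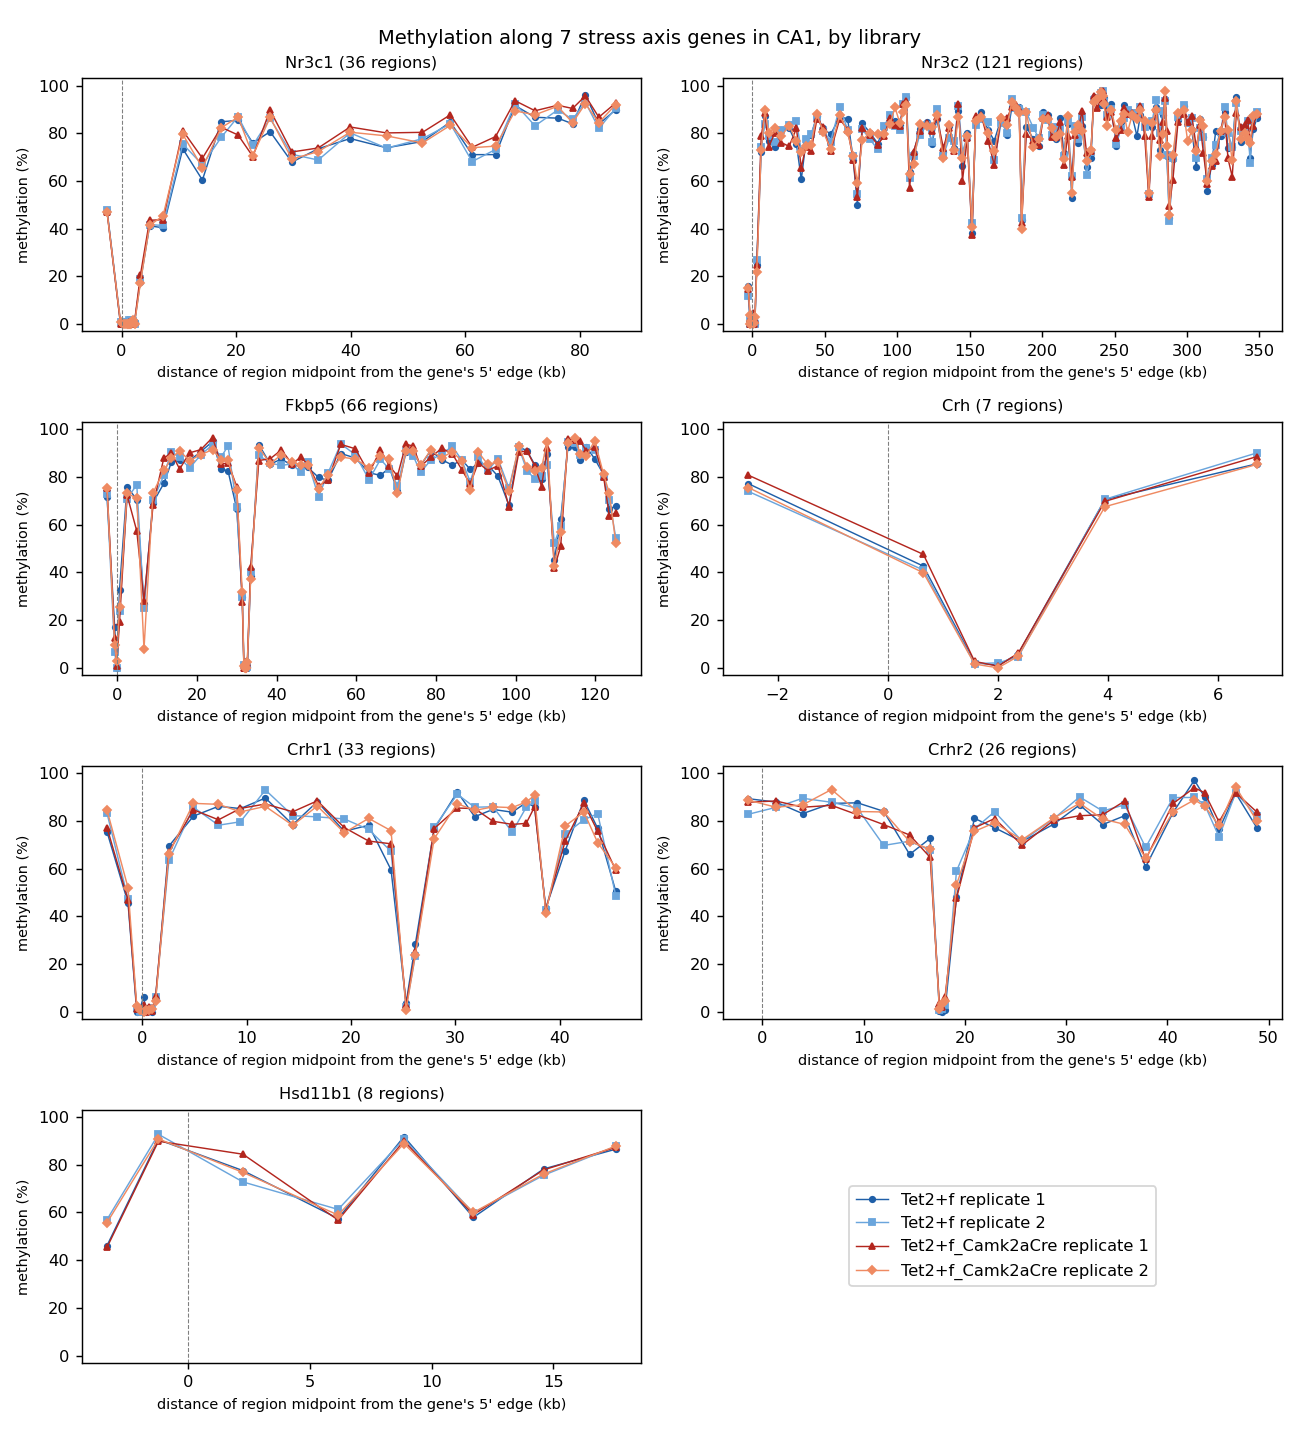
Methylation in percent (vertical axis) of each region against the distance in kb of its midpoint from the 5' edge of the gene's outermost named region (horizontal axis), for the 7 genes and 4 libraries. The libraries follow each other closely, and the dips mark the low-methylated stretches at the 5' edges of Nr3c1, Nr3c2 and Crhr1, at the 5' edge and within Fkbp5, over Crh and within Crhr1 and Crhr2.

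Among the receptors, Nr3c1 encodes the glucocorticoid receptor, which binds the hormone with lower affinity than the mineralocorticoid receptor and acts as a transcription factor. On chromosome 18 its regions contain a stretch of 4530 bp, from 39487193 to 39491722 (mm10), made of 12 low regions. The stretch averaged 1.96% and 2.34% in the controls and 1.90% and 1.72% with Cre. It is flanked by regions at intermediate levels, at 41.9% and 42.7% inside the gene and at 47.3% upstream. RefSeq places the outermost start of Nr3c1 further upstream, at 39519421, and the promoter window around that start, 2000 bp before it to 500 bp after it, averaged 84.4%, so the stretch lies inside the longest RefSeq span.

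Within that Nr3c1 stretch, 3 adjoining regions from 39490316 to 39491366 were at 0% in both Cre libraries and above 0% in both control libraries. The control libraries were at 1.09% and 0.680% in the first, at 0.877% and 1% in the second and at 1.14% and 0.408% in the third. The groups did not overlap in these regions, and the differences were of 0.939 points or less. The smallest unadjusted p of the gene, 0.00432, was that of the second of them (limma adjusted p = 0.937). Further into the gene, the region from 39478912 to 39482463 had the largest difference upward without overlap, at 73.5% and 75.5% in the controls and 81.1% and 79.6% with Cre. The largest downward lay at 39467166 to 39469741, at 75.9% and 74.9% against 70.3% and 70.7%.

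The mean of Nr3c1 was 50.8% and 51.1% in the controls and 52.8% and 51.6% with Cre. Both Cre libraries thus lay above both control libraries, by 1.20 points on average (limma adjusted p = 0.999). Weighted by length, the difference was 2.24 points, again without overlap (limma adjusted p = 0.960). Of its 36 regions, 11 lay higher and 5 lower with Cre, without overlap. Over all regions these shares were 15.9% and 16.8%.

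Nr3c2 encodes the mineralocorticoid receptor, which in hippocampal neurons is largely occupied at resting hormone levels. Its 121 regions span the longest gene of the set, on chromosome 8, and 10 low regions form a stretch of 5971 bp from 76896670 to 76902640. The first 6 of these carry the deposited name of a neighbouring predicted gene, Gm10649, and were taken by the 3 kb rule. The stretch averaged 2.10% and 1.51% in the controls and 2.65% and 2.44% with Cre. Both Cre libraries were higher, by 0.740 points (limma unadjusted p = 0.181, adjusted p = 0.947).

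The regions inside the Nr3c2 stretch differed in both directions. The region from 76899083 to 76899231 was at 0% in both control libraries and at 2.27% and 3.57% with Cre, the smallest unadjusted p of the gene at 0.000641 (limma adjusted p = 0.937). Its neighbour from 76899232 to 76899549 was at 1.14% and 1.72% in the controls and at 0% in both Cre libraries. The region that holds the RefSeq start site of the printed sequence, from 76902214 to 76902640, was at 0% in both control libraries and at 1.62% and 2.94% with Cre. Adjoining short regions thus differed in opposite directions.

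Outside its start, Nr3c2 was highly methylated, with 63 regions at 80% or more. Dips to 39.5%, 42.6% and 45.8% lay at 151.6, 185.8 and 287.8 kb from its 5' edge. The largest difference downward lay near the 3' end, from 77230292 to 77233356, at 74.2% and 74.3% in the controls and 61.8% and 68.6% with Cre. The largest upward covered the 3' end of the gene, from 77243074 to 77245259, at 69.8% and 67.6% against 76.7% and 76.1%. Of its regions, 20 lay higher and 28 lower with Cre, without overlap, or 39.7%, against 32.8% of all regions (15.9% higher and 16.8% lower). Its gene mean was 72.8% and 73.5% in the controls and 72.5% and 73.0% with Cre, and the groups overlapped.

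Fkbp5 encodes a chaperone that lowers the hormone affinity of the glucocorticoid receptor, and the gene is itself induced by that receptor. On chromosome 17 it has a pair of low stretches. That of 1173 bp at the RefSeq start, from 28485102 to 28486274, averaged 0.619% and 0.300% in the controls and 0.781% and 0.728% with Cre. The other, of 939 bp from 28518006 to 28518944, lies upstream of the RefSeq span, at the 5' edge of the regions that carry the name. It was at 8.52% and 3.40% in the controls and at 6.56% and 6.18% with Cre, so the control libraries lay on either side of the Cre libraries.

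Within the low stretch at the start of Fkbp5, the region from 28485102 to 28485558 was at 0.417% and 0.408% in the controls and 2% and 2.57% with Cre, with the smallest unadjusted p of the gene, 0.00216 (limma adjusted p = 0.937). Just before the start, between 28487033 and 28488931, the levels were 66.6% and 67.5% against 76.01% and 74.6%, its largest difference upward without overlap. The largest downward without overlap lay at 28406091 to 28407195, at 62.2% and 59.6% against 51.0% and 57.1%. With overlap, the region from 28511825 to 28514337 had the largest downward difference of the 297, -9.40 points, at 70.6% and 76.8% in the controls and 57.4% and 71.2% with Cre (unadjusted p = 0.159). A single library set the adjoining region, from 28510721 to 28511824, apart, since Cre replicate 2 was at 7.83% and the other libraries at 26.8%, 25.03% and 27.9%.

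Over all regions of Fkbp5 the mean was 69.7% in both control libraries and 70.1% in both Cre libraries. The difference of 0.379 points exceeded the spread within either group (SD 0.0179 and 0.0373, n = 2 each) and did not pass the test (limma adjusted p = 0.999). Without the margin the difference was 0.393 points and the control SD 0.207. Weighted by length the control SD was 0.295. Of its 66 regions 15 lay higher and 5 lower with Cre, without overlap, and 5 higher and 0 lower had an unadjusted p under 0.05. Without overlap were thus 30.3% of them, against 32.8% of all regions, and 7.58% had such a p, against 4.6% of all regions. Over the RefSeq span of Fkbp5 the difference was 0.657 points, and weighted by length 0.601 points. Around its start, 2000 bp upstream to 500 bp downstream, 7 regions averaged 14.3% and 14.1% in the controls and 15.2% and 15.5% with Cre (difference of 1.16 points, limma adjusted p = 0.969).

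Hsd11b1 encodes the enzyme that regenerates active glucocorticoid from its inactive form inside cells. With the 3 kb margin it had the highest unweighted mean of the members, and none of its regions was under 50%. Without the margin its mean was 71.5%, below those of Fkbp5, 72.0%, and Nr3c2, 76.4%. At its outermost RefSeq gene start, which is not that of the printed sequence, lay the region of chromosome 1 from 193263968 to 193268448. This region was at 77.6% and 72.8% in the controls and 84.4% and 76.8% with Cre. The groups overlapped there, although this was the smallest p of the gene (unadjusted p = 0.203, limma adjusted p = 0.937). Only 1 region was without overlap, from 193258363 to 193260820, at 91.8% and 90.8% against 90.02% and 88.9%. The deposited table gives many regions within the RefSeq span to an overlapping gene, 1600010F14Rik. Taken over that span, 16 regions had a mean of 77.6% and 77.9% in the controls and 77.4% and 76.3% with Cre, and the difference was -0.874 points in place of 0.115 points.

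Crh encodes the releasing hormone itself. It is a small gene on chromosome 3, and a low stretch of 1298 bp from 19693720 to 19695017 covers most of its RefSeq span, 19693401 to 19695396. The stretch averaged 3.06% and 2.82% in the controls and 3.17% and 2.15% with Cre. Across the gene start, the region from 19695018 to 19696315, was at 42.6% and 41.0% in the controls and 47.6% and 39.9% with Cre. In both the Cre libraries lay on either side of the control libraries.

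No region of Crh had an unadjusted p under 0.05. The smallest, 0.0511, was at 19694165 to 19694452, at 1.04% and 2.08% in the controls and 0.694% and 0% with Cre (limma adjusted p = 0.937). Towards its 3' side the level climbed to 69.7% and 87.4% over regions named for its neighbour Trim55. Upstream, from 19696316 to 19701387, the mean was 76.9%. The gene mean was 40.8% and 40.6% in the controls and 42.3% and 39.3% with Cre.

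Crhr1 encodes the main receptor for the hormone in the forebrain. On chromosome 11 its start held a stretch of 7 low regions, 2150 bp from 104131962 to 104134111, which averaged 2.16% and 1.53% in the controls and 1.94% and 1.46% with Cre. RefSeq puts the outermost start before this stretch, at 104130463, where the promoter window averaged 64.0%. A further low region of 732 bp, from 104157572 to 104158303, lay 25.3 kb from the 5' edge. It was at 3.65% and 1.78% in the controls and 2.60% and 0.851% with Cre, and the groups overlapped.

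The flank of that inner dip and the sequence after the gene had the largest differences of the whole set in the upward direction. The region from 104155486 to 104157506 was at 59.5% and 67.3% in the controls and 70.4% and 75.9% with Cre, a difference of 9.78 points (unadjusted p = 0.0697). Beyond the 3' end, between 104176901 and 104179138, the controls were at 50.5% and 48.6% and the Cre libraries at 59.4% and 60.4%. Its difference of 10.3 points was the only one of 10 points or more among the 297 regions (unadjusted p = 0.0285, limma adjusted p = 0.937), and 0.875% of all regions differed by that much. The region next to it, from 104175680 to 104176900, differed downward, at 76.9% and 83.1% against 75.6% and 70.9%. The smallest p of the gene was downward too, 0.0173 at 104161924 to 104163757, at 92.1% and 91.2% against 85.4% and 87.2%. Of its 33 regions 5 were without overlap, 2 higher and 3 lower, or 15.2%, against 32.8% of all regions. Its gene mean was 57.0% and 56.8% in the controls and 56.6% and 57.8% with Cre.

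Crhr2 encodes the second receptor, which binds urocortins with higher affinity than the hormone. It stood apart from Crhr1 at the start site of the printed sequence. In Crhr2 that site, on chromosome 6, lay in a region at 87.9% and 85.7% in the controls and 88.4% and 85.8% with Cre. The low stretch of Crhr2 lay inside the gene, 889 bp in 3 regions from 55117307 to 55118195, about 17.7 kb from the 5' edge. All 3 regions were higher in both Cre libraries than in both control libraries. The first was at 0.800% and 2.98% in the controls and 6.14% and 4.62% with Cre. The second had 0% and 0.978% in the controls against 2.08% and 3.33%, and its unadjusted p of 0.0204 was the smallest in Crhr2 (limma adjusted p = 0.937). The third was at 0.417% and 0.900% against 3.13% and 1.26%.

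Averaged over this Crhr2 stretch, the control libraries were at 0.406% and 1.62% and the Cre libraries at 3.78% and 3.07%, a difference of 2.41 points. The stretch was singled out after its values were seen. Fitted together with all 12522 stretches of at least 2 neighbouring regions under 20%, it had an unadjusted p of 0.0199 and did not pass (limma adjusted p = 0.947). A limma unadjusted p under 0.05 was found for 4.42% of all stretches, and 3.64% of them had a difference at least as large upward. Without replicate 1 of the control group its difference was 1.81 points, and without replicate 2 of that group 3.02 points. The unadjusted p was 0.00851 without control replicate 2, but 0.0596 without control replicate 1, 0.122 without Cre replicate 1 and 0.0808 without Cre replicate 2. In Crhr2 as a whole, 6 of 26 regions were without overlap, 5 higher and 1 lower, or 23.1%, against 32.8% of all regions. Outside the stretch the largest differences without overlap were 3.96 points upward, at 55089615 to 55091266, and -3.20 points, at 55125116 to 55127204. The gene mean was 70.8% and 71.6% in the controls and 71.6% and 71.3% with Cre.

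**Figure D3:**
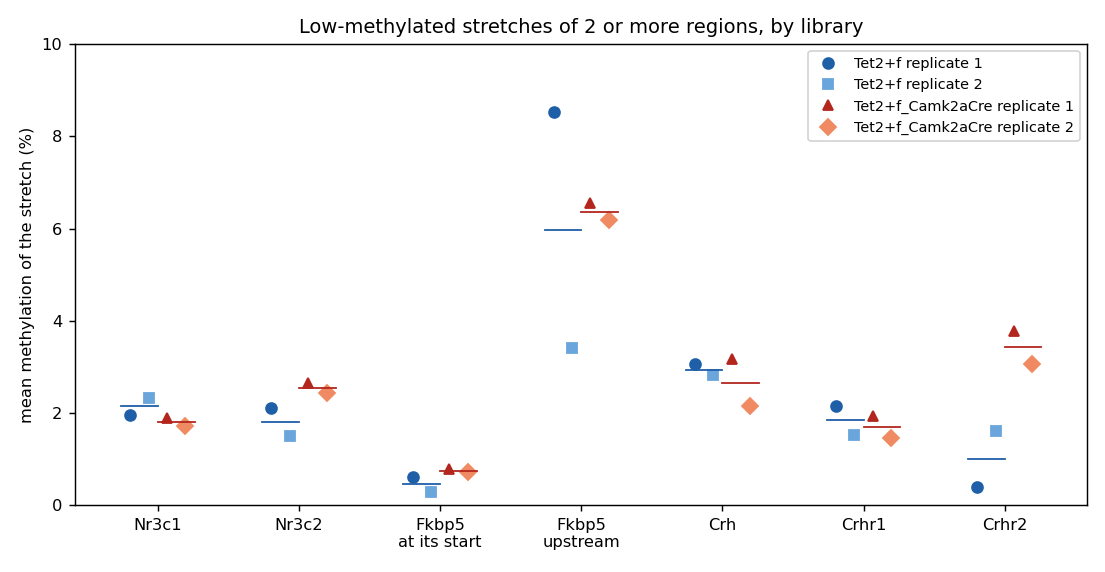
Mean methylation in percent (vertical axis, 0 to 10%) of the 7 low-methylated stretches in each library, with lines at the group means. Crhr2 is the stretch with the widest gap between groups, from 1.62% in the higher control library to 3.07% in the lower Cre library, and the upstream stretch of Fkbp5 has the widest spread between control libraries.

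Of the 7 low stretches, 3 were higher in both Cre libraries, those of Nr3c2, Crhr2 and the RefSeq start of Fkbp5. That of Nr3c1 was lower in both, and the other 3 overlapped. Of all 12522 stretches 17.9% were higher and 16% lower without overlap. The mean over all stretches was 3.17% and 3.21% in the controls and 3.37% and 3.20% with Cre.

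**Figure D4:**
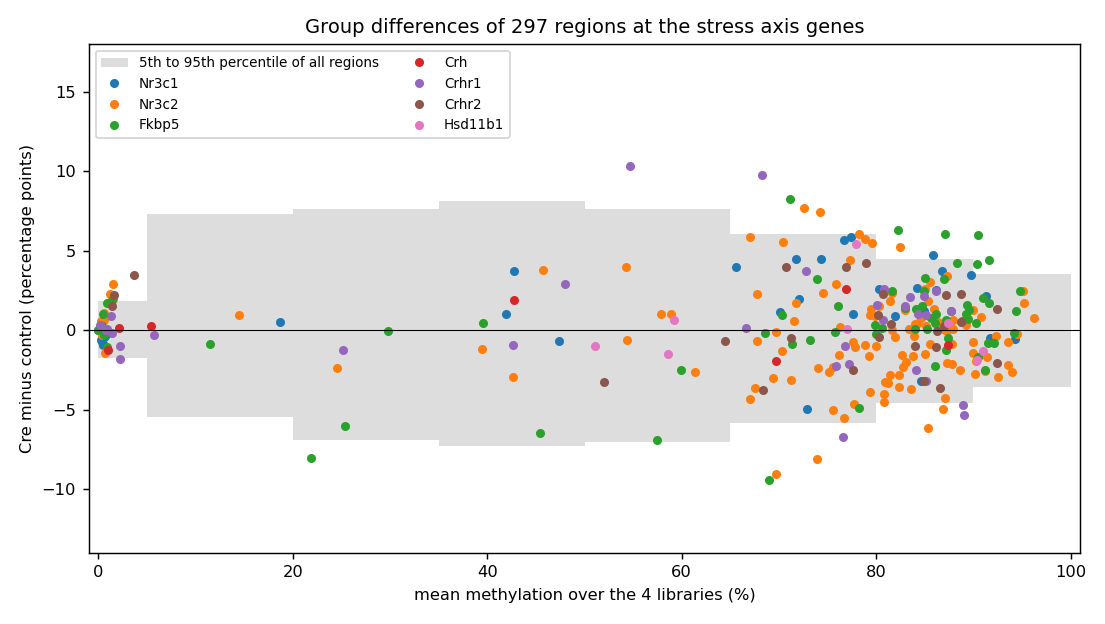
Difference between the group means in percentage points (vertical axis, Cre minus control) of the 297 regions against their mean level in percent (horizontal axis), coloured by gene. Grey bands run from the 5th to the 95th percentile of all regions at that level, and 29 of the 297 regions lie outside them.

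Over all 297 regions, the counts were near those of the whole table. None passed the adjusted test, as for all regions (0% called). An unadjusted p under 0.05 was found for 19 regions, 11 higher and 8 lower in the Cre group, or 6.40%, against 4.6% of all regions. The groups did not overlap in 98 regions, 53 higher and 45 lower, or 33.0%, against 32.8% of all regions. Outside the 5th to 95th percentile of all regions at a like level lay 9.76% of the 297, against 10% of all regions. The median absolute difference between groups was 1.55 points, and that between 2 libraries of 1 group was 2.23 points. For the table these were 1.74 and 2.44 points. The first is between means of 2 libraries and the second between single libraries, so they are not on the same scale.

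The mean over the 297 regions was 66.8% and 67.2% in the controls and 67.1% in both Cre libraries. The difference of 0.149 points was smaller than the spread between the control libraries (exact permutation test, two-sided, p = 1). With 6 arrangements of 4 libraries, this test cannot reach a p below 0.333. None of the 7 gene means passed (limma, 0% of 25181 called, 5.29% at an unadjusted p under 0.05), nor did any of the 7 promoters (0% of 21912 called, 5.12% at an unadjusted p under 0.05), and none of these 14 had an unadjusted p under 0.05. The groups did not overlap in 2 of the 7 gene means, Nr3c1 and Fkbp5, both higher in the Cre group, while 33.1% of all gene means were without overlap. Among promoters, 2 of 7 were without overlap, Fkbp5 and Hsd11b1, both higher, against 33.7% of all promoters. With promoters taken as 1000 bp on each side of the start, Nr3c2 was without overlap too, at 8.004% and 5.93% in the controls and 8.52% and 9.28% with Cre, and its difference was 1.93 points in place of 0.442 points (limma adjusted p = 0.965). The Hsd11b1 promoter was at 67.5% and 67.0% in the controls and 70.6% and 67.9% with Cre.

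**Figure D5:**
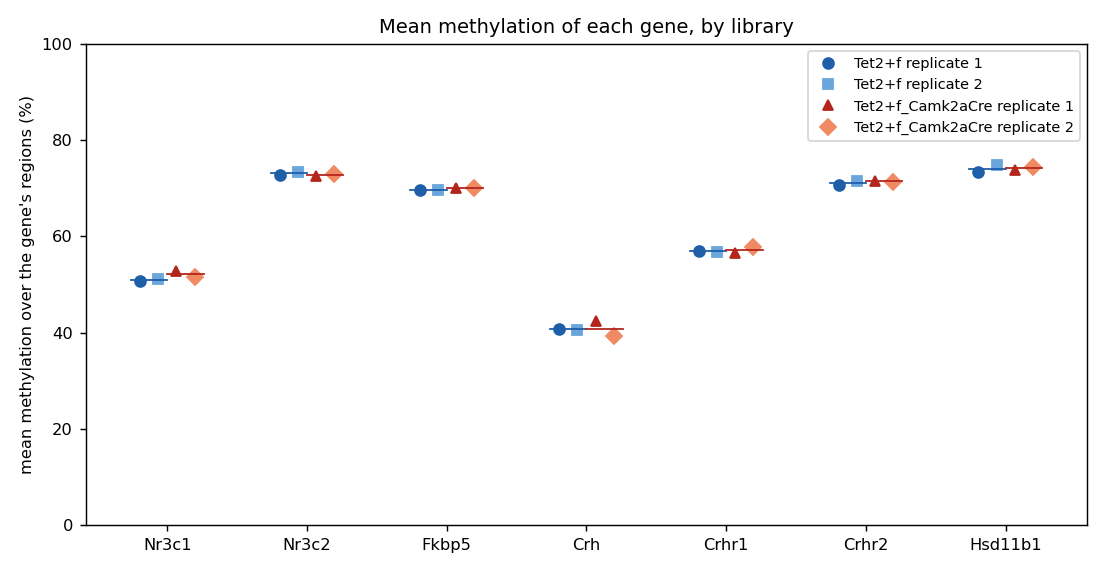
Mean methylation in percent (vertical axis) over the regions of each of the 7 genes, 3 kb margin included, in each library, with lines at the group means. The genes differ from each other by up to 33.3 points, while the groups differ by 1.20 points or less within a gene.

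Other genes of the pathway were taken as 4 lists with 51 genes, of which 49 had a level. No promoter and no gene mean of these passed in either direction or had an unadjusted p under 0.05 (limma, smallest adjusted p = 0.955 for promoters and 0.960 for gene means). Of 49 promoters 26 were higher and 23 lower with Cre. Their median difference was 0.0427 points, against 0.0273 points over all promoters, of which 50.8% were higher. Gene means were higher in 24 and lower in 25, with a median of -0.0328 points, against 0.0253 points over all genes, of which 51.1% were higher. Without overlap, 5 gene means of the lists were higher and 12 lower, where 33.1% of all gene means were without overlap. Among the promoters of the lists 7 were higher and 4 lower without overlap, where 33.7% of all promoters were without overlap. By list, gene means were higher in 4 and lower in 7 of the peptides and receptors, 4 and 5 of the steroid enzymes and carriers, 10 and 3 of the chaperones and coregulators, and 6 and 10 of the response genes.

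The peptides and receptors of the axis other than the members had 11 measured promoters, 5 higher and 6 lower. The smallest p values were those of Avp, which encodes vasopressin, a partner of Crh in the release of corticotropin, and of Oxt, which encodes oxytocin. The Avp promoter was at 63.8% and 69.3% in the controls and 72.0% and 72.4% with Cre (unadjusted p = 0.0520). The Oxt promoter was at 76.4% and 78.1% against 83.3% and 79.5%. For both neuropeptides the groups did not overlap at the promoter, as for 33.7% of all promoters. In their gene means the groups overlapped.

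Steroid enzymes and carriers had 9 measured promoters, 6 higher and 3 lower, none of them past the test. Akr1c18, a hydroxysteroid dehydrogenase, was at 80.04% and 76.9% in the controls and 73.7% and 76.5% with Cre. Star, which carries cholesterol into mitochondria for steroid synthesis, was at 66.2% and 68.4% against 71.7% and 68.6%. In both genes the nearest libraries of the groups lay close together.

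Receptor chaperones and coregulators, 13 genes, had low promoters, with 12 of 13 under 20%. Of these promoters 7 were higher and 6 lower. Ncor1, a corepressor of nuclear receptors, was at 3.76% and 3.26% in the controls and 3.04% and 2.95% with Cre. Hsp90ab1, a chaperone that holds the receptor ready to bind hormone, was at 8.56% and 7.89% against 8.20% and 5.61%, and its groups overlapped.

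Glucocorticoid response genes, 16 in number, were split evenly, with 8 promoters higher and 8 lower. Ddit4, an inhibitor of mTOR signalling, was at 12.1% and 11.1% in the controls and 9.77% and 10.5% with Cre. Klf9, a transcription factor induced by glucocorticoids, was at 11.2% and 13.4% against 14.2% and 13.3%. The Klf9 groups overlapped.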

How the data were processed

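The members and the gene lists were chosen with earlier results of these data known. The authors deposited 1 table with a methylation percent for every region in each library, without counts or coverage. The submitters' processing notes name Bismark 0.19.0, edgeR, Trim Galore 0.4.5 and FastQC 0.11.5, and the build mm10. How regions were drawn, averaged and filtered is not given in the sources used here.

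Libraries were grouped by title and matched to columns by the same title. A value was absent in some library for 158 of 849172 regions; these were dropped, and none lay at the 7 genes. The test was limma 3.58.1 (R 4.3.3) on the log2 of (share + 0.01) / (1 - share + 0.01), where share is the level on a scale of 0 to 1, fitted over all regions, all gene means (25181) or all promoters (21912), with Benjamini-Hochberg adjustment at 0.05. It was also run on simulated levels, with shifts at intermediate levels only and larger than any gene mean difference reported here. That run does not show whether differences smaller than its shifts would be found, or differences at levels outside those it covered. Gene means are unweighted means of regions by deposited name, with the 3 kb margin for the 7 genes. Promoters average every region that touches the interval from 2000 bp before to 500 bp after the outermost RefSeq gene start. In Hsd11b1, Nr3c2 and Crhr1 this is not the start of the printed sequence. RefSeq start windows, RefSeq spans and low stretches were added after seeing the data. RefSeq positions are those of GRCm38.p6, which is the assembly behind mm10. The regions named in the text are those at the gene start, those under 50% (by range and count beyond 4), the smallest p and the largest differences without overlap; from the lists, the 2 smallest promoter p values each. Further regions were picked with their values in view. The difference between replicate 1 and 2 in one group correlated with that in the other at 0.00648 over regions, and replicate numbers were not treated as pairs.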

Additional observations from a re-analysis of the deposited data

How the results depend on the processing

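The test called 0 members and 0 list genes, and each of 44 other values of these counts was 0 too. The settings were the percent scale, an offset of 0.05, a threshold of 0.01, a minimum difference of 10 points, leaving out each library, the replicate block, no margin, weighting by length, RefSeq spans, another promoter width and RefSeq start windows. The smallest adjusted p was between 0.689 and 1. With the replicate number as a block, 0 member regions, 0 gene means and 0 promoters passed. Spans, start windows and the length-weighted counts were chosen after seeing the data, and a coverage minimum was not run because the table has no coverage. A fit that leaves a group with a lone library takes its spread from the other group.

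Of 105 differences under other settings 90 kept their direction, and 0 passed the threshold. Over the libraries left out, gene mean differences ranged from 0.602 to 1.80 points for Nr3c1, -0.714 to -0.0221 for Nr3c2, 0.353 to 0.406 for Fkbp5, -1.42 to 1.65 for Crh, -0.243 to 0.922 for Crhr1, -0.114 to 0.693 for Crhr2 and -0.615 to 0.844 for Hsd11b1. Promoter differences ranged from -2.61 to 1.17 points for Nr3c1, -0.231 to 1.11 for Nr3c2, 1.002 to 1.31 for Fkbp5, -0.795 to 3.88 for Crh, -0.885 to 5.37 for Crhr1, -0.943 to 1.17 for Crhr2 and 0.593 to 3.35 for Hsd11b1. The mean over all 297 regions ranged from -0.0544 to 0.352 points. Weighted by length, gene mean differences were 2.24 points for Nr3c1, -0.570 for Nr3c2, 0.601 for Fkbp5, 0.589 for Crh, 0.618 for Crhr1 and 0.608 for Hsd11b1. Without the margin they were 0.263 for Crh, 0.0799 for Crhr1, 0.0739 for Crhr2 and 0.684 for Hsd11b1. With the other promoter width the differences were 1.93 points for Nr3c2 and 0.852 for Crh. Over RefSeq spans those of Fkbp5 and Crhr2 were 0.657 and 0.0739 points. Over RefSeq spans the differences of Crh and Hsd11b1 turned to -0.176 and -0.874 points. The cause was not tested.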
